A study of Mus musculus with 8 samples.

Results

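Dntt, which encodes the terminal transferase TdT, was examined in induced regulatory T cells (iTreg) together with 9 genes of DNA end joining: Polm, Poll, Lig4, Xrcc4, Nhej1, Xrcc5, Xrcc6, Prkdc and Dclre1c. These 10 genes were taken by name from the 23361 genes of the expression table. They were chosen by a known result of the same comparison, the lower level of Dntt in Nrp-1+ iTreg, so the differences of the 10 genes between the groups are given as a description, and where calls of the fit over all genes are counted among them, the count is no evidence. Naive CD4+ CD44low CD62Lhigh T cells of wild-type mice with a Foxp3-RFP reporter allele were cultured with beads against CD3 and CD28, IL-2 at 50 U/ml and TGF-β at 2 ng/ml. Foxp3-RFP+ cells were then sorted by the surface receptor neuropilin-1 into an Nrp-1+ and an Nrp-1- fraction, each sequenced as 4 libraries. The comparison asked how the transcriptomes of the 2 sorted fractions differ, and both fractions carried the same reporter and had the same cytokines. The labels give day 5 in 1 field and 3 days of culture in another, and the study's methods, which give the IL-2 concentration in another unit, match the latter on the sort day. The age of the mice was not used here.

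The fragments-per-kilobase-per-million (FPKM) values are scaled for transcript length, so levels of different genes can be set side by side. A gene was tested when its mean over the 8 libraries was at least 1 FPKM, which 10467 genes and 10 of the 10 end-joining genes reached. A gene was called when the limma adjusted p was under 0.05 on the log2(FPKM + 1) scale. Nrp1, the gene behind the sort, was 20.4 to 22.0 FPKM in Nrp-1+ iTreg, against 4.70 to 5.31 FPKM in Nrp-1- iTreg (exact two-sided permutation test, p = 0.0286, the smallest that 4 against 4 libraries can give). The cells were sorted on its protein, so this is a check of the sort and no separate result. Foxp3 was 107 to 120 FPKM and Cd4 was 309 to 335 FPKM over the 8 libraries. Depth read from the steps between low values was 0.810 to 1.24 times that of the first Nrp-1+ library. In the other libraries 15.9% to 19.8% of the low genes lay at the step used, so this estimate is rough. Short RNA genes took from 1.77% to 43.9% of the summed FPKM. The labels call the replicates biological but do not say whether they came from separate mice or cultures, and the p-values cover the spread between these libraries only.

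In developing lymphocytes the RAG recombinase cuts the antigen receptor genes and the ends are rejoined by non-homologous end joining. Ku, made of Ku70 (Xrcc6) and Ku80 (Xrcc5), binds the broken ends and recruits the kinase DNA-PKcs (Prkdc) and the nuclease Artemis (Dclre1c), which opens the hairpins. TdT adds nucleotides without a template, the N regions of T and B cell receptors, the related polymerases mu and lambda fill gaps, and DNA ligase IV (Lig4) with XRCC4 and XLF (Nhej1) seals the break. All cells use these factors to repair breaks, whereas TdT is known from immature lymphocytes.

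Dntt, Xrcc5 and Xrcc6 were the genes of the 10 whose groups did not overlap, as was so for 39.5% of all tested genes. Nothing is read from the choice of these 3. The 250 bases before their RefSeq starts (GRCm38.p6) are shown to let the sequence at their starts be compared. Each is written in the direction of transcription, with CG pairs in capitals. Dntt lies on the plus strand, chr19:41029025-41029274; Xrcc5 on the plus strand, chr1:72307171-72307420; and Xrcc6 on the plus strand, chr15:82016119-82016368.
Dntt: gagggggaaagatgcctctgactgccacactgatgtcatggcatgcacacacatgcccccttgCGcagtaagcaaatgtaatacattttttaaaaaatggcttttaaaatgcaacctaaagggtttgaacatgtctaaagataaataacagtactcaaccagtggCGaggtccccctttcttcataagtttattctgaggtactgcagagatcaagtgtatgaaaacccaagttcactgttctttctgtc
Xrcc5: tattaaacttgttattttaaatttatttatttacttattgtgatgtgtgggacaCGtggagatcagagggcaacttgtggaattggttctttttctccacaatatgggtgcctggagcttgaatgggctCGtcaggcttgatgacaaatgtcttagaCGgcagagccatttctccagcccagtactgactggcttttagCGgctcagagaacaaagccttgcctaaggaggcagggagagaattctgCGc
Xrcc6: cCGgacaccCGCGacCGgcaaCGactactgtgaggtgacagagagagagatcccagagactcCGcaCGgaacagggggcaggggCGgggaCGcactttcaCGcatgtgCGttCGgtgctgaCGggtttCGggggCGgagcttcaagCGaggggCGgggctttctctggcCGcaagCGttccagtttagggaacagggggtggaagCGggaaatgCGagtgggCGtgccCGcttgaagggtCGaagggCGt

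The Dntt stretch had 2 CG pairs and a GC content of 41.6%, and 18.8% of 32851 promoters of the same length had fewer CG pairs. The Xrcc5 stretch had 5 CG pairs and a GC content of 44.8%, close to the median of 6 pairs. The Xrcc6 stretch had 25 CG pairs and a GC content of 65.2%. Of the 10 genes, 8 had a RefSeq promoter, with 2 for Lig4. The other promoters held 26 pairs for Xrcc4, 27 and 28 for Lig4, 13 for Polm, 9 for Nhej1 and 8 for Dclre1c.

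Both strands were searched for GGGCGG (the GC box), TTTCCCGC and TTTGGCGC (E2F motifs), GGGAA (the Ikaros core, whose complement lies within TTTCCCGC) and TATAAA (the TATA box). TTTCCCGC was found once among the 9 promoters, in Xrcc6, beginning 46 bases before the start, and 0.895% of all promoters hold it. GGGCGG was found 3 times in each of Xrcc6, Polm and Xrcc4, 2 times in Nhej1 and in 1 Lig4 promoter, and once in Dclre1c. It was in neither the Dntt nor the Xrcc5 stretch, and 32.7% of promoters hold it. GGGAA was found once in Dntt, 246 bases before the start, once in Xrcc4 and in 1 Lig4 promoter, and 2 times in each of Xrcc6 and Polm. It is held by 56.2% of promoters. TATAAA, held by 12.4% of promoters, and TTTGGCGC, held by 0.417%, were in none of the 9. A match is a description of letters and not of binding.

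Dntt was lower in Nrp-1+ iTreg. Its level was 9.65, 10.9, 10.2 and 9.68 FPKM in Nrp-1+ iTreg replicates 1 to 4, and 12.4, 13.6, 14.5 and 13.8 FPKM in Nrp-1- iTreg replicates 1 to 4. Every Nrp-1+ library was below every Nrp-1- library. The means were 10.1 ± 0.570 and 13.6 ± 0.871 FPKM (SD, n = 4), so the mean decreased by 25.5%. The fitted log2 fold change was -0.39 with an SE of 0.05 (95% interval -0.51 to -0.27), and 89.1% of the tested genes had a smaller change in either direction. This rank describes the difference that chose the genes and is no support for it. In bulk RNA, fewer cells with the transcript and less transcript per cell cannot be told apart. The gene spans chr19:41029275-41059525 (GRCm38, plus strand) with up to 12 exons in a transcript.

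The ranges of the template-using polymerases of the same family overlapped between the groups. Polm, DNA polymerase mu, was 7.12 to 8.18 FPKM in Nrp-1+ iTreg, against 7.16 to 8.88 FPKM in Nrp-1- iTreg, with a log2 fold change of -0.00 (SE 0.07, 95% interval -0.16 to 0.16). Poll, DNA polymerase lambda, was 13.6 to 16.02 FPKM and 13.6 to 15.2 FPKM, with a log2 fold change of 0.06 (SE 0.05, 95% interval -0.07 to 0.18). Set against these relatives within each library, Dntt was 0.633 to 0.712 times Poll in Nrp-1+ iTreg and 0.911 to 0.952 times Poll in Nrp-1- iTreg. It was 1.18 to 1.43 times Polm and 1.51 to 2.02 times Polm. Both ratios rest on the Dntt values that chose the genes and are not separate evidence.

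**Figure D1:**
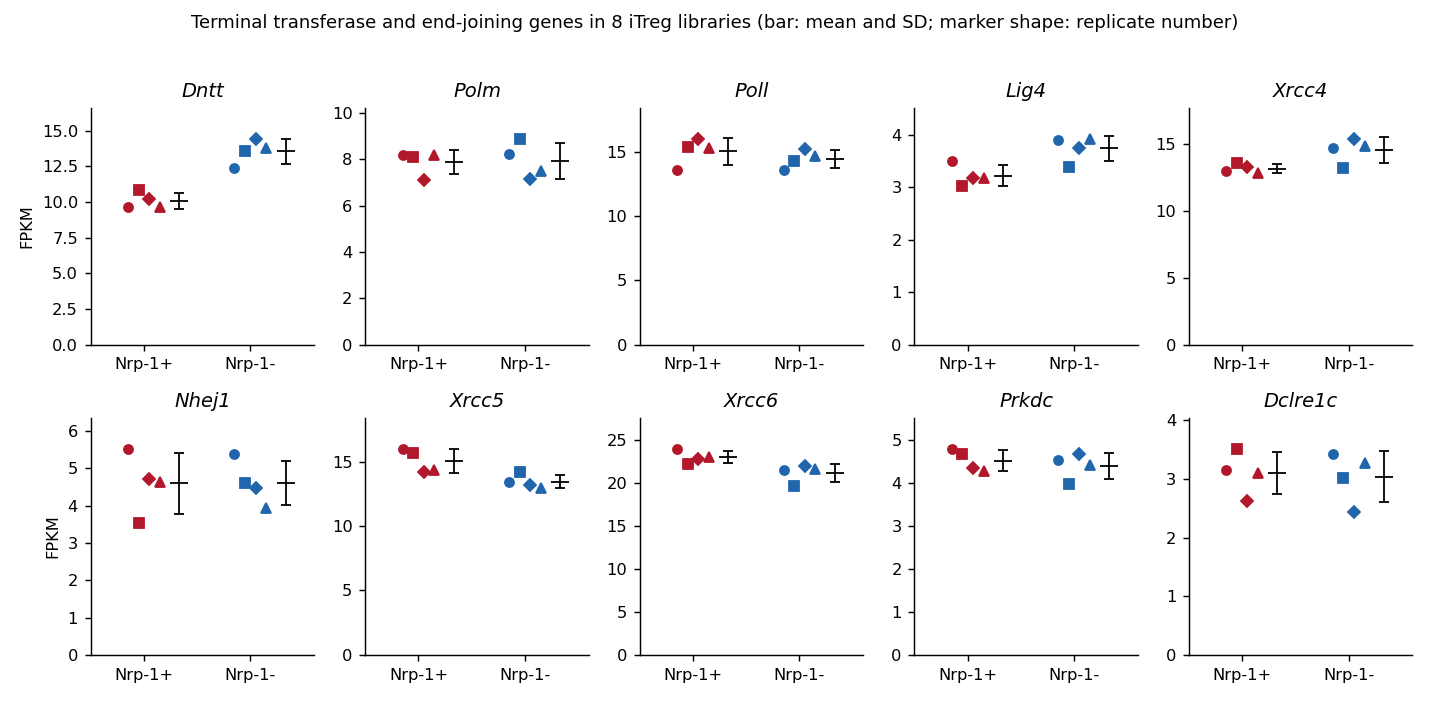
FPKM of the 10 genes (linear axes from 0, each gene on its own scale) in 4 Nrp-1+ iTreg (red) and 4 Nrp-1- iTreg (blue) libraries, with marker shape for the replicate number and the mean and SD at the right of each group. Dntt was 9.65 to 10.9 FPKM against 12.4 to 14.5 FPKM, Xrcc5 and Xrcc6 were also separated between the groups, and the other 7 genes overlapped.

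The genes of Ku were both higher in Nrp-1+ iTreg. Xrcc5 was 15.97, 15.7, 14.2 and 14.3 FPKM in Nrp-1+ iTreg replicates 1 to 4 and 13.4, 14.2, 13.2 and 12.98 FPKM in Nrp-1- iTreg replicates 1 to 4. The lowest Nrp-1+ library (14.21 FPKM) stood just above the highest Nrp-1- library (14.17 FPKM). The means were 15.04 ± 0.907 and 13.4 ± 0.519 FPKM (SD, n = 4), a log2 fold change of 0.15 (SE 0.05, 95% interval 0.05 to 0.26). Xrcc6 was 23.9, 22.2, 22.7 and 23.0 FPKM in Nrp-1+ iTreg replicates 1 to 4 and 21.5, 19.6, 22.0 and 21.6 FPKM in Nrp-1- iTreg replicates 1 to 4. Its groups were also separated, by 22.22 against 22.01 FPKM. The means were 23.0 ± 0.719 and 21.2 ± 1.04 FPKM, a log2 fold change of 0.11 (SE 0.04, 95% interval 0.02 to 0.20). The subunits kept a like ratio: Xrcc6 was 1.42 to 1.61 times Xrcc5 in Nrp-1+ iTreg and 1.39 to 1.67 times Xrcc5 in Nrp-1- iTreg.

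The ligase genes were slightly lower, with overlap. Lig4 was 3.51, 3.03, 3.17 and 3.17 FPKM in Nrp-1+ iTreg replicates 1 to 4 and 3.90, 3.39, 3.74 and 3.93 FPKM in Nrp-1- iTreg replicates 1 to 4. The lowest Nrp-1- library was below the highest Nrp-1+ library. The log2 fold change was -0.17 (SE 0.06, 95% interval -0.29 to -0.04). Xrcc4, the partner that stabilises ligase IV, was 12.9, 13.6, 13.3 and 12.8 FPKM in Nrp-1+ iTreg replicates 1 to 4 and 14.7, 13.2, 15.4 and 14.9 FPKM in Nrp-1- iTreg replicates 1 to 4. Here replicate 2 of Nrp-1- iTreg lay among the Nrp-1+ libraries. The log2 fold change was -0.13 (SE 0.05, 95% interval -0.24 to -0.03). Xrcc4 was 3.69 to 4.49 times Lig4 in Nrp-1+ iTreg and 3.78 to 4.12 times Lig4 in Nrp-1- iTreg. Nhej1 was 3.54 to 5.52 and 3.94 to 5.39 FPKM, with a log2 fold change of -0.01 (SE 0.12, 95% interval -0.28 to 0.26), the widest interval of the 10.

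The end-processing pair differed by less than the spread between libraries. Prkdc was 4.28 to 4.79 FPKM in Nrp-1+ iTreg, against 3.97 to 4.67 FPKM in Nrp-1- iTreg, a log2 fold change of 0.03 (SE 0.05, 95% interval -0.09 to 0.16). Dclre1c was 2.63 to 3.51 and 2.43 to 3.43 FPKM, a log2 fold change of 0.02 (SE 0.10, 95% interval -0.20 to 0.25). The summed level of the 10 genes was 98.4 to 101 FPKM in Nrp-1+ iTreg, against 98.8 to 103 FPKM in Nrp-1- iTreg.

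Of the 10 genes, 5 were called, 2 of them higher (Xrcc5 and Xrcc6) and 3 lower (Dntt, Lig4 and Xrcc4) in Nrp-1+ iTreg. Over all tested genes 40.9% were called, 20.9% higher (2189 genes) and 20% lower (2093 genes) and nothing is read from the count of the 10, whose contrast chose them. The groups did not overlap for 3 of the 10 genes and for 39.5% of all tested genes. The split of calls over all genes moved with the scaling: it was 2946 higher and 1065 lower when the short RNA genes were taken out and the rest rescaled, and 1834 higher and 2748 lower after a correction for GC content and length. The median log2 fold change was 0.01 over the 10 genes and -0.02 over all tested genes. Leaving out any 1 library other than Nrp-1- iTreg replicate 2 left only 1 or 2 of the 10 called. Over all genes, 1953 to 2046 were higher and 1770 to 1912 lower with 1 library left out. Over 18 alternatives the log2 fold change of Dntt ran from -0.43 to -0.33, which describes its dependence on the processing and is no support for the difference that chose it. It ran from 0.11 to 0.21 for Xrcc5, 0.08 to 0.17 for Xrcc6, -0.18 to -0.07 for Xrcc4 and -0.21 to -0.12 for Lig4. The call was kept in 12 of 18 alternatives for Xrcc5, in 9 of 17 for Lig4, and in 7 of 18 for each of Xrcc4 and Xrcc6.

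**Figure D2:**
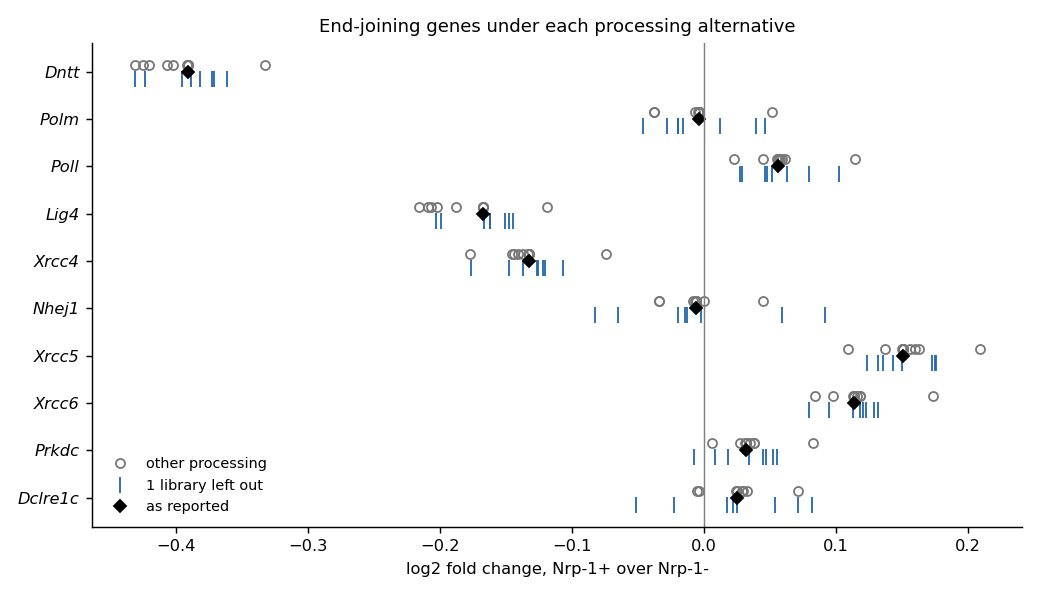
Log2 fold change, Nrp-1+ over Nrp-1- iTreg, of the 10 genes as reported (diamonds), with 1 library left out (ticks) and under other processing (open circles). Dntt ran from -0.43 to -0.33, while Polm, Nhej1, Prkdc and Dclre1c had values on both sides of 0.

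Over the 8 libraries, Xrcc6 had the highest mean level of the 10 genes, 22.1 FPKM, and was above Poll in all 8. Poll (14.7 FPKM), Xrcc5 (14.2 FPKM), Xrcc4 (13.9 FPKM) and Dntt (11.8 FPKM) followed, and the ranges of neighbours in that order overlapped. Polm (7.92 FPKM) was below Dntt in all 8 libraries. Nhej1 (4.61 FPKM) and Prkdc (4.46 FPKM) overlapped with each other. Lig4 (3.48 FPKM) was below Prkdc in all 8 libraries and overlapped with Dclre1c (3.07 FPKM), the lowest. Dntt thus lay among the general end-joining factors, and 43.7% of the tested genes had a lower mean. RAG was not: Rag1 was at most 0.0151 FPKM, at 0 in 5 of the 8 libraries, and Rag2 was listed at 0 in all 8.

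**Figure D3:**
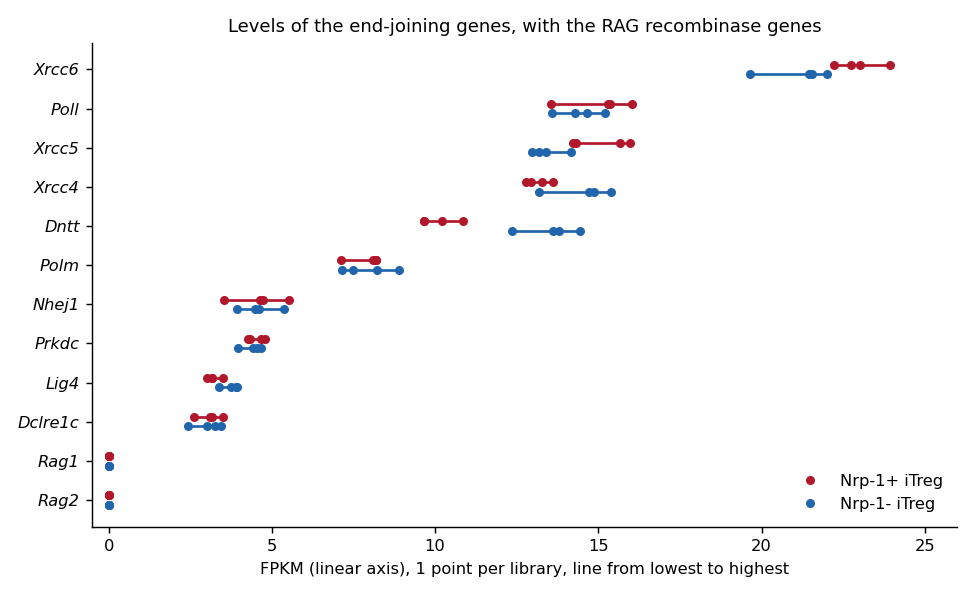
FPKM of the 10 genes and of Rag1 and Rag2 (linear axis), 1 point per library and a line from the lowest to the highest library of each group. Xrcc6 was highest at 19.6 to 23.9 FPKM, Dntt ran from 9.65 to 14.5 FPKM with a gap between the groups, and both RAG genes sat at or near 0.

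The spread between libraries of 1 group, as a coefficient of variation, was 6.22% for Dntt and 5.02% for the median tested gene. It was largest for Nhej1 (15.5%) and Dclre1c (13.1%) and smallest for Xrcc6 (4.06%). The intervals of Nhej1 and Dclre1c each held differences as large as those of Xrcc5 and Xrcc6.

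Genes around the pathway were counted from lists named for their roles, and each count stands beside 20.9% of all tested genes higher and 20% lower. Of the RAG recombinase and its cofactors, 2 of 4 were tested, and both DNA-bending cofactors rose: Hmgb1 from 189 ± 3.72 to 284 ± 7.98 FPKM (limma adjusted p = 1.11e-06) and Hmgb2 from 372 ± 12.5 to 584 ± 20.7 FPKM (limma adjusted p = 3.14e-06). Of 12 genes for break sensing and end protection, 9 rose, none fell and 3 did not pass, with a median log2 fold change of 0.33. H2afx, the histone variant phosphorylated at breaks, rose by 0.90 on the log2 scale (SE 0.02, limma adjusted p = 1.96e-07). Mdc1, which binds it, rose by 0.47, Nbn of the MRE11 complex by 0.44, the ubiquitin ligase Rnf168 by 0.41 and Paxip1 by 0.40. Those without a call were Atm (-0.05), Trp53bp1 (-0.03) and Rnf8 (0.01).

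Of 7 accessory end-joining factors in the table, 4 rose, 1 fell and 2 did not pass, with a median of 0.14. The end-cleaning enzyme Tdp2 rose by 0.42 (limma adjusted p = 2.49e-04), Aplf by 0.39, Tdp1 by 0.31 and the helicase Wrn by 0.14 (limma adjusted p = 0.0346, 0.00905 to 0.0866 over the alternatives). Polb, DNA polymerase beta, fell by 0.13 (limma adjusted p = 0.0324, 0.00721 to 0.256 over the alternatives). The count was 3 in place of 5 without Nrp-1+ iTreg replicate 1 or without Nrp-1- iTreg replicate 2 or 4. Aptx (-0.04) was among those that did not pass.

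Most genes of the other routes of break repair were also higher in Nrp-1+ iTreg. Of 9 genes of alternative end joining, 8 rose and 1, Lig3 (-0.09), did not pass, with a median of 0.61. At a mean of at least 5 FPKM, where 7 of the 9 were tested, the median was 0.26, below the 0.33 of break sensing. Lig1, the replicative ligase, went from 30.5 ± 1.07 to 62.2 ± 2.89 FPKM (log2 fold change 1.00, SE 0.04, limma adjusted p = 5.24e-07). Fen1 rose by 0.84, Exo1 by 0.79, Polq, the polymerase theta of microhomology joining, by 0.68 and the resection factor Rbbp8 by 0.61. Of 14 genes of homologous recombination, 12 rose, 1 fell and 1 did not pass, with a median of 0.76. Rad54l rose by 0.97 (SE 0.04, limma adjusted p = 8.11e-07), Brca1 by 0.92, Rad54b by 0.85 and Blm by 0.78. Rad52 fell by 0.14 (limma adjusted p = 0.0143, 0.00307 to 0.162 over the alternatives).

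Proliferation markers moved with these lists. All 15 of 15 rose, with a median log2 fold change of 0.87, and their summed level was 1877 to 1929 FPKM in Nrp-1+ iTreg, against 1056 to 1067 FPKM in Nrp-1- iTreg. Mki67 rose by 0.82 (limma adjusted p = 2.56e-06) and Top2a by 1.00 (limma adjusted p = 1.84e-07). Their part in the differences of the repair genes was not tested. The median of each of these 4 repair lists and of the proliferation list was above 0 under all 18 alternatives.

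**Figure D4:**
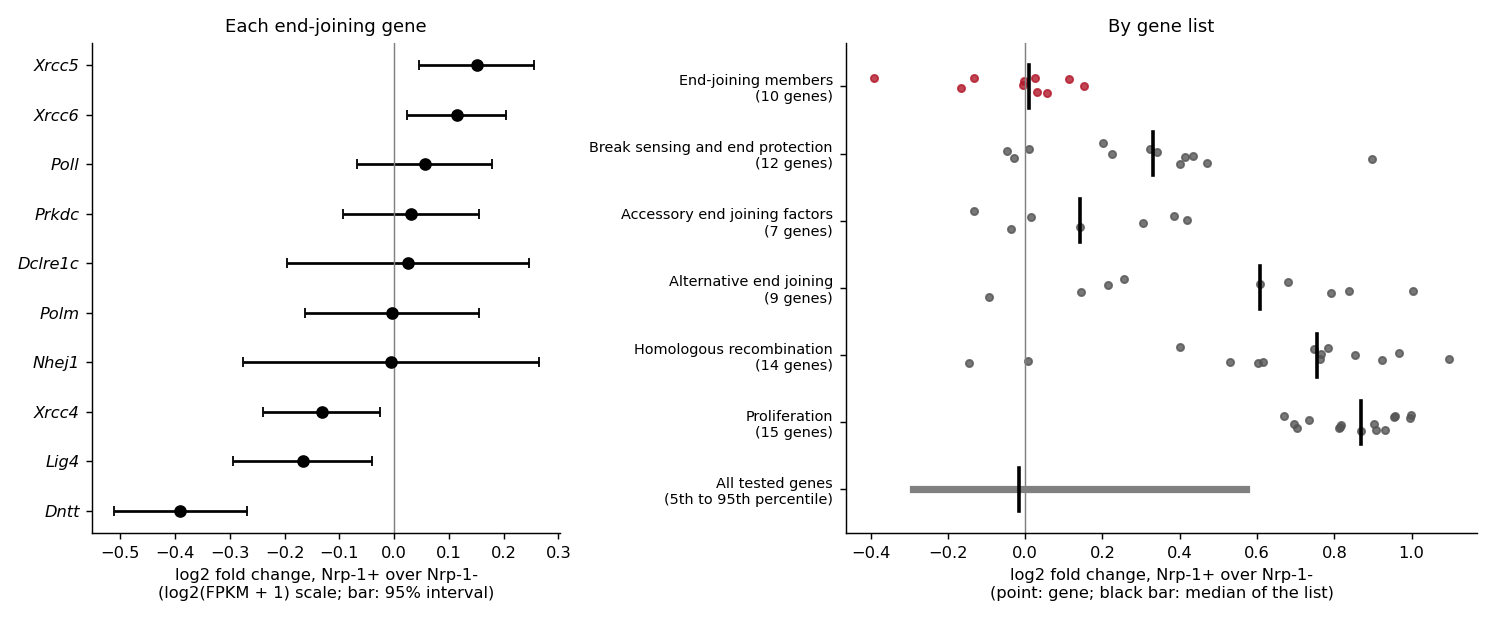
Left, log2 fold change with its 95% interval for each of the 10 genes; right, the log2 fold change of each tested gene in the named lists (points), with the list median (black bar) and, for all tested genes, the range from the 5th to the 95th percentile (grey). The 10 genes ran from -0.39 to 0.15, and the medians were 0.33 for break sensing, 0.61 for alternative end joining, 0.76 for homologous recombination and 0.87 for proliferation.

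Transcription factors of immature lymphocytes moved in both directions. Tcf3, which encodes the E2A proteins, rose by 0.22 (limma adjusted p = 3.58e-04) and Runx1 by 0.16 (limma adjusted p = 0.0339, 0.00633 to 0.0859 over the alternatives). Ets1 fell by 0.12, Elf1 by 0.11 and Tcf12 by 0.10, each past the limma threshold but not after rescaling without short RNA genes. Ikzf1, which encodes Ikaros, was 183 ± 2.08 FPKM in Nrp-1+ iTreg, against 181 ± 2.53 FPKM in Nrp-1- iTreg, and did not pass (limma adjusted p = 0.562), and neither did Gata3 (0.03). The median of the 7 was 0.01.

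TdT is known from immature thymocytes and B cell precursors, and most markers of those cells were low. By the study's methods, splenic cells that carried CD8a, CD11b, CD11c, CD49b, CD25 or B220 were removed with antibody-bound beads before the culture, and the labels add a later sort on CD4 and Foxp3-RFP. Of 8 immature thymocyte markers, 5 were under the level for testing: Rag1, Rag2, Ptcra (at most 0.167 FPKM), Cd8a (at most 0.111 FPKM) and Arpp21 (at most 0.110 FPKM). The other 3 were Cd8b1, which fell by 0.31 (limma adjusted p = 0.0119), Ccr9, which fell by 0.32 (limma adjusted p = 0.0265, 0.00914 to 0.0667 over the alternatives), and Cd24a, which rose by 0.78 (limma adjusted p = 4.65e-06) and is also found on activated T cells. The median of the 3 was -0.31, and Cd8b1 and Ccr9 were thus lower on the same side as Dntt. The summed level of the 8 was 28.1 to 29.9 FPKM in Nrp-1+ iTreg, against 21.7 to 24.6 FPKM in Nrp-1- iTreg, most of it Cd24a (19.4 and 10.8 FPKM on average). Their part in the Dntt difference was not tested. Of 6 B cell markers, Ms4a1 and Pax5 were listed at 0 in all libraries, and Cd79b was 3.64 to 5.38 FPKM. Their summed level was 5.21 to 5.96 and 4.01 to 5.83 FPKM. Of 5 myeloid markers in the table only Itgam was tested, and it rose, with 6.38 to 7.001 FPKM in Nrp-1+ iTreg, against 5.38 to 5.73 FPKM in Nrp-1- iTreg (log2 fold change 0.23, limma adjusted p = 0.00136). The 5 summed to 6.92 to 7.71 FPKM in Nrp-1+ iTreg, against 5.88 to 7.76 FPKM in Nrp-1- iTreg. The 4 NK markers, all under the level for testing, summed to 0.819 to 1.16 FPKM in Nrp-1+ iTreg, against 0.464 to 0.800 FPKM in Nrp-1- iTreg. Most of that sum was Eomes (0.85 and 0.593 FPKM on average).

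Naive T cell markers were lower with Dntt in Nrp-1+ iTreg. Of 9, 8 fell and 1, Klf2, did not pass, with a median log2 fold change of -0.12. After rescaling without short RNA genes 4 fell and the median was -0.06, and with quantile normalization 4 were called. Il7r, the IL-7 receptor chain, fell by 0.36 (limma adjusted p = 6.84e-05), S1pr1 by 0.26 and Tcf7 by 0.23 (limma adjusted p = 2.75e-05, up to 0.0969 over the alternatives). Their summed level was 2222 to 2247 FPKM in Nrp-1+ iTreg, against 2441 to 2523 FPKM in Nrp-1- iTreg, and their part in the Dntt difference was not tested. Among 9 markers of CD4+ T and regulatory T cells, 3 rose and 3 fell, Foxp3 rising by 0.09 (limma adjusted p = 0.0245, 0.00355 to 0.109 over the alternatives).

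The genes whose levels over the 8 libraries ran most like those of Dntt, out of 10197 compared, were Ttc33 (Pearson r = 0.99), Pja1 (0.99), Rnf146 (0.99), Hopx (0.98) and Nle1 (0.98). The 8 points share the group difference, so this mostly ranks genes by a like difference between the groups. Hopx, for example, was 23.1 FPKM in Nrp-1+ iTreg, against 29.9 FPKM in Nrp-1- iTreg. Among the end-joining genes r with Dntt was 0.78 for Xrcc4, 0.66 for Lig4, -0.74 for Xrcc5 and -0.75 for Xrcc6. With the group means removed, the most alike were Tmem241 (0.98), Pnkd (0.98), Pmaip1 (0.96), Mtfr1 (0.95) and Rbm8a (0.94), none of them among the former 5. Over the same 8 points r was then 0.38 for Xrcc4, -0.47 for Lig4, 0.02 for Xrcc5 and -0.20 for Xrcc6. These are descriptions of 8 libraries and carry no test.

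Several of the 10 genes start beside or overlap another gene in the GENCODE M21 annotation (GRCm38), a comparison chosen after the values were seen. Prkdc, at chr16:15637866-15842235, starts 466 bases from Mcm4, a helicase subunit of replication on the opposite strand. Mcm4 went from 44.1 ± 1.63 to 70.7 ± 1.93 FPKM (log2 fold change 0.67, SE 0.03, limma adjusted p = 1.70e-06), while Prkdc had 4.40 ± 0.303 and 4.52 ± 0.249 FPKM. The 95% intervals of the 2 genes, 0.60 to 0.74 and -0.09 to 0.16, did not meet, and the difference itself was not tested. Lig4, at chr8:9969049-9977686, starts 21 bases from Abhd13, which had a log2 fold change of -0.06 (limma adjusted p = 0.317). Xrcc4, at chr13:89774027-90089608, starts 485 bases from Tmem167 and overlaps it by 486 bases, and Tmem167 had 0.05 (95% interval -0.02 to 0.13, limma adjusted p = 0.242), just above the interval of Xrcc4.

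Overlapping genes matter for counting where reads are not assigned by strand, and the sources used here do not settle this: the study's methods name a directional kit, the labels name another kit, and neither gives the strand setting of the counting. The annotated span of Xrcc6, chr15:81987835-82040085, overlaps Desi1 on the opposite strand by 41340 bases, and the RefSeq start of Xrcc6 shown above lies inside that span. Desi1 had a log2 fold change of 0.01 (limma adjusted p = 0.841). Dclre1c, at chr2:3424131-3464130, overlaps Suv39h2 on the opposite strand by 8316 bases. Suv39h2 was 1.56 ± 0.230 FPKM in Nrp-1+ iTreg, against 1.09 ± 0.191 FPKM in Nrp-1- iTreg (limma adjusted p = 0.0396, 0.00966 to 0.143 over the alternatives). Xrcc4 also overlaps the antisense gene Gm4117 on the opposite strand by 113140 bases, and no value was given for Gm4117. The values of Xrcc6, Xrcc4 and Dclre1c are uncertain to that extent.

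**Figure D5:**
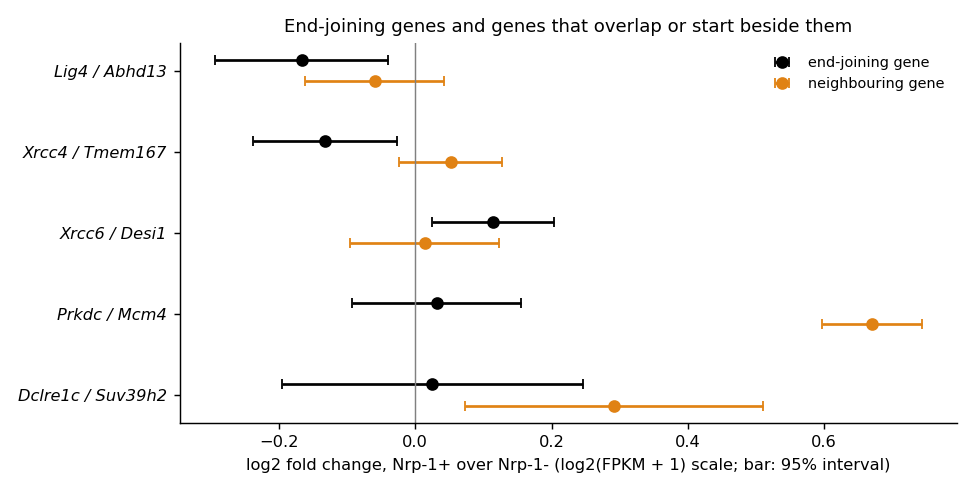
Log2 fold change with its 95% interval of 5 end-joining genes (black) and of the gene that overlaps or starts beside each (orange). Mcm4 lay at 0.67 and its neighbour Prkdc at 0.03, the intervals of Xrcc4 and Tmem167 just failed to meet, and those of the other 3 pairs overlapped.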

How the data were processed

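RNA was sequenced from 4 Nrp-1+ iTreg and 4 Nrp-1- iTreg samples; the nTreg of the study were not analysed here. The authors deposited 1 table of FPKM values per gene, made on GRCm38 (mm10) per the labels. By the study's methods, the reads of directional polyA libraries were processed in CLC Genomics Workbench and FPKM was calculated by Cufflinks, whereas the labels name a SMARTER kit; whether strand was used in counting is not given in the sources used here. Read counts were not analysed here, so the counting error of a value is not known. FPKM values were taken as log2(FPKM + 1), genes with a mean under 1 were left out, and the groups were compared with limma 3.58.1 (trended eBayes, R 4.3.3) over 10467 genes, with Benjamini-Hochberg adjustment and a threshold of 0.05. Fold changes on this scale understate low genes. The script was tested on simulated data. The 10 members, the gene lists and the tests were chosen with earlier results of these data known. Named genes were the members, up to 5 called genes per list by size of change, those under the filter, Nrp1, Foxp3, Mki67, Top2a, and the 5 most like Dntt. Markers, neighbouring genes and genes without a call that are named beyond these were chosen after their values were seen. Some genes that this rule names are not reported here. Alternatives covered the pseudocount (0.1, 0.5), the filter, scaling, the eBayes trend, a replicate block, each library left out, an exact Mann-Whitney test and, added after seeing the data, a GC content and length correction. Promoters were from RefSeq and gene positions from GENCODE M21.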

Additional observations from a re-analysis of the deposited data

Results flagged for a closer look

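Among 152 sets of 4 values examined, 9 held a library that stood far from the other 3 by Dixon's test at the 95% level, where about 7.6 would be found by chance. Of the end-joining genes, this was so for Polm in Nrp-1+ iTreg replicate 3, at 7.12 FPKM against 8.11 to 8.18 FPKM in the others. The other 8 were in repair, transcription factor and proliferation genes. In Nrp-1- iTreg replicate 2, Atm was 7.98 FPKM against 8.70 to 8.80, Polq was 1.475 FPKM against 1.63 to 1.66, Fen1 was 26.2 FPKM against 24.0 to 24.3 and Cdk1 was 27.95 FPKM against 26.54 to 26.75. In Nrp-1- iTreg replicate 1, Mdc1 was 9.07 FPKM against 7.83 to 8.01, Ikzf1 was 184.5 FPKM against 179.3 to 179.8 and Mcm6 was 63.1 FPKM against 60.0 to 60.3. In Nrp-1+ iTreg replicate 1, Mcm7 was 120.1 FPKM against 125.1 to 125.8.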

How the results depend on the processing

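Of the 10 end-joining genes, 5 were called as reported. The count was 2 with no filter on low values, 3 after rescaling without short RNA genes, 3 with eBayes without trend, 3 by the exact Mann-Whitney test at an unadjusted p under 0.05, 3 with the correction for GC content and length (chosen after seeing the data), and 1 to 4 with 1 library left out. The cause was not tested. Over all genes, 2946 in place of 2189 were higher and 1065 in place of 2093 lower after rescaling without short RNA genes. With no filter 2298 of 16289 tested genes were higher and 1904 lower, and without trend 2191 and 2066. The counts were 1834 and 2748 with the GC content and length correction, and 1953 to 2046 and 1770 to 1912 with 1 library left out. The groups did not overlap for 4139 of the 10467 tested genes. Homologous recombination had 7 called genes in place of 13 at a mean of at least 5 FPKM, where fewer genes are tested. Accessory factors had 3 or 4 called with 1 library left out, and transcription factors had 2 in place of 5 after rescaling without short RNA genes and 3 with the replicate block. The other counts of the 7 repair, transcription factor and proliferation lists stayed within 1.5 times of the reported ones. Of the marker lists, the naive T count was 4 in place of 8 and the CD4+ T and regulatory T count 2 in place of 6 with quantile normalization, and the immature thymocyte count was 2 in place of 3 at a mean of at least 5 FPKM and in 5 of the 8 fits with 1 library left out.

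Small differences changed sign. After rescaling without short RNA genes Polm was 0.052 and Nhej1 was 0.045, and Dclre1c was -0.0049 with quantile normalization and -0.0034 with the GC content and length correction. With 1 library left out, Polm ran from -0.046 to 0.046, Nhej1 from -0.082 to 0.092, Prkdc from -0.0075 to 0.055 and Dclre1c from -0.051 to 0.082. Samples with the same replicate number did not deviate together (correlations from -0.54 to 0.01, and from -0.11 to -0.04 without short RNA genes). The numbers were not taken as pairs in the main fit, and these correlations cannot settle whether the replicates were paired. With the replicate block 4 of the 10 end-joining genes were called, and 1931 genes were higher and 1675 lower. Without counts, the depth behind a value is not known, and differences under about the spread of the libraries were not detectable for Nhej1 and Dclre1c.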
